A study of Mus musculus with 14 samples.

Results

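Hind limb muscle of Myf6 knockout (KO) mice was compared with and without injury by RNA-seq. The comparison rests on 6 libraries, 3 of injured and 3 of uninjured muscle, out of 12 RNA libraries and 14 samples in the series. They were chosen by their labels: the 3 numbers that name uninjured KO libraries with the letter L name injured KO libraries with the letter R, and each number was read as 1 animal with both its legs. On that reading the uninjured muscle came from an animal that carried an injury on the other side. The other 6 RNA libraries are of wild-type (WT) mice in the same 2 states, again with 3 paired numbers that differ from those of the KO mice, so genotype and any litter or batch cannot be told apart. All groups are described as total RNA of whole hind limb skeletal muscle. The strain, age and sex of the mice, the Myf6 allele and whether it was removed throughout the body, how the muscle was injured and how long before sampling are not given in the sources used here.

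Myf6 (MRF4) belongs, with Myf5, Myod1 and Myog, to the transcription factors that set the muscle fate, and is the one of them most expressed in mature fibres. The title of the study concerns secreted muscle proteins (myokines) under Myf6 and the upkeep of muscle stem cells. After muscle injury, neutrophils and then macrophages enter the tissue, satellite cells (the stem cells of muscle) divide and fuse, and new fibres pass through a stage with embryonic and neonatal myosins while fibroblasts lay down matrix. Each of these steps has marker genes, which were collected in gene lists and are described below.

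Markers of skeletal muscle were high in all 6 KO libraries. Ckm, the muscle creatine kinase, ranged from 5563 to 16030.5 RPM (reads of a gene per 1000000 reads assigned to genes), and Des, the muscle intermediate filament desmin, from 2351 to 5281 RPM. The KO libraries held between 12704445 and 49392472 reads, so that 3 reads, taken as the floor of detection, correspond to 0.0607 to 0.236 RPM. Among the KO pairs, that of animal 2 had the fewest reads in each state and stood apart in several ways given below, so several results are also given without it.

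The targeted gene was examined first. Myf6 was at 1.86, 3.46 and 2.27 RPM in uninjured and 3.32, 2.88 and 3.02 RPM in injured KO muscle, in the order of animals 1, 2 and 3. WT muscle had 46.2, 25 and 111 RPM without and 47.9, 121 and 72.5 RPM with injury. Every KO library lay below every WT library, in both states. The fitted injury change of Myf6 in KO muscle was 0.23 on the log2(RPM + 1) scale (SE 0.45, limma unadjusted p = 0.623) and -0.00149 with TMM scaling, explained below, and the 3 injured KO libraries lay within the range of the uninjured ones. Which part of the gene the allele removes is not given, so the remaining reads cannot be assigned to an intact or a truncated transcript.

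Between the injured and the uninjured legs of KO mice, no gene reached an adjusted p under 0.05. Of 13337 genes tested with limma on log2(RPM + 1), animal kept as a block, 0% were called after Benjamini-Hochberg adjustment, and 889 genes, 6.67%, had an unadjusted p under 0.05. The smallest adjusted p was 0.565. This fit estimated a common spread per gene from the KO and WT pairs together. The limma SE and p-values of KO changes given below thus do not measure the spread of the KO animals alone. Neither DESeq2 nor edgeR, run on whole reads recovered from the RPM values, called a gene, with 790 and 437 genes at an unadjusted p under 0.05. Such genes numbered 468 in limma with no animal block and 562 with the KO libraries fitted alone. Genes with small p-values are therefore described as the leading genes of this comparison, not as changed genes. Of the 889, 857 (6.43% of all genes) were higher and 32 (0.24%) lower in injured muscle, so 96.4% pointed up, and 80.9% of all genes had an estimate above 0, with a median of 0.29.

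That upward tilt differed between scalings and between sets of animals. TMM scaling, which sets libraries level on the bulk of their genes rather than on their total, moved the median of all genes by -0.24, to 0.05. It left 637 genes (4.78%) at an unadjusted p under 0.05, of which 364 (2.73% of all genes) or 57.1% were higher, and 55.8% of all estimates were above 0. The leading genes common to both scalings, with the same sign, numbered 396. Scaling to the reads outside mitochondrial genes moved the median the other way, to 0.34, with 98.2% of its genes at that p higher. With RPM and without animal 2 the median was 0.09. For this reason the median of each gene group below is given on the RPM scale and, as the TMM value, relative to the bulk of genes. A log2 change of a single gene is on the RPM scale unless TMM is named. Of the 96 genes named by the rule given under the processing, 8 had the opposite sign with TMM scaling, and for these the TMM value is given. A positive value that is below 0 with TMM scaling describes a gene that moved less than most.

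The 3 KO animals differed widely in how far the injured leg departed from the uninjured one. The median change over all genes was 0.19 in animal 1, 0.65 in animal 2 and -0.02 in animal 3. In animal 2, 4705 genes were at least 1 log2 unit higher and 222 at least 1 lower in the injured leg. In animal 1 these counts were 741 and 65. In animal 3 they were 30 and 6, so that its 2 legs were close to alike. Of the genes at least 1 log2 unit higher, 339 were shared by animals 1 and 2, 7 by animals 2 and 3, and 0 by animals 1 and 3. In all 3 animals 2636 genes (19.8%) were higher and 513 (3.85%) lower in the injured leg, by any amount.

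**Figure D1:**
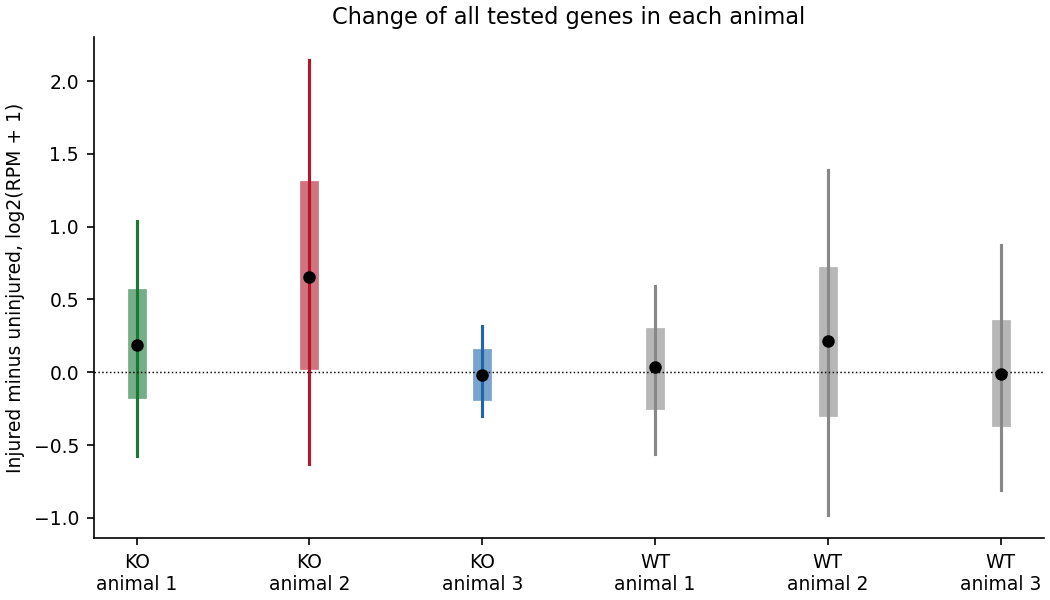
Injured minus uninjured difference on the log2(RPM + 1) scale over 13337 genes, for each KO and WT animal. The dot is the median, the thick bar runs from the 25th to the 75th percentile and the thin line runs from the 5th to the 95th percentile. KO animal 2 has the highest median, 0.65, and KO animal 3 the narrowest spread.

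Likeness between libraries showed the same order. Pearson's r across genes, which are not independent replicates, was 0.972 between the legs of animal 1, 0.918 in animal 2 and 0.995 in animal 3. The injured library of animal 1 resembled both libraries of animal 3, with r of 0.992 and 0.991, more than it resembled its own uninjured leg. Both libraries of animal 2 lay at r of 0.943 or less to those of the other KO animals. Its injured library had r of 0.953, 0.946 and 0.918 to the uninjured libraries of WT animals 1, 2 and 3. To their injured libraries it had r of 0.959, 0.918 and 0.953. The share of reads on mitochondrial genes was 15.3% in the uninjured and 23.2% in the injured leg of KO animal 2. In animal 1 that share was 6.76% and 4.95%, and in animal 3 it was 3.63% and 4.30%. Malat1, a long RNA that stays in the nucleus, was at 106 and 288 RPM in the uninjured and injured leg of animal 2, against 90.8 and 80.4 RPM in animal 1 and 81.1 and 73.4 RPM in animal 3. In WT animals 1, 2 and 3 it was at 240, 213 and 284 RPM in uninjured and 264, 494 and 249 RPM in injured legs. Their mitochondrial shares were 18.1%, 22.3% and 13.8% in uninjured and 12.5%, 8.35% and 14.8% in injured legs. What part these differences have in the gene changes was not tested.

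**Figure D2:**
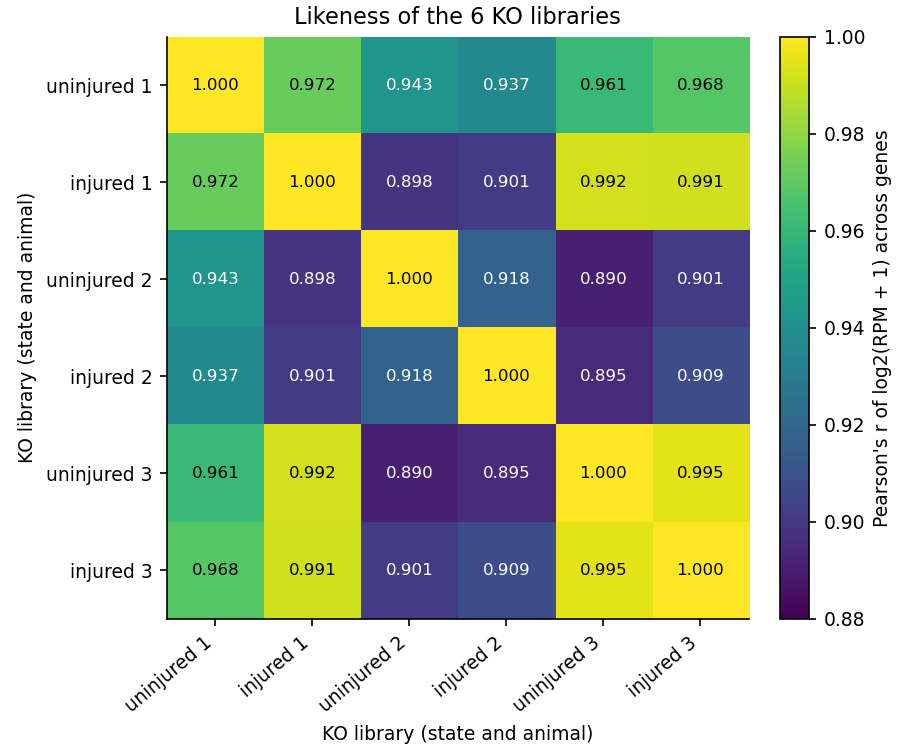
Pearson's r of log2(RPM + 1) across genes for each pair of the 6 KO libraries, named by state and animal. Both legs of animal 3 and the injured leg of animal 1 form a block with r of 0.991 to 0.995, while the legs of animal 2 are at 0.918 to each other.

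With the pair of animal 2 left out, no gene was called and 20 genes had an unadjusted p under 0.05. Only 16 of the 889 leading genes were among those 20. Leaving out animal 3 instead gave 2508 genes at that level and leaving out animal 1 gave 760, again with no call. The number of leading genes thus depended on which animal was included, and the genes named next are to be read with the 3 pairs of values in view.

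Among the leading genes, Selenop, which encodes a secreted selenium carrier, had the smallest p of the genes that were higher in all 3 animals. Its levels were 116, 50.4 and 162 RPM in the uninjured and 215, 170.4 and 191 RPM in the injured legs of animals 1, 2 and 3. The injured values lay above all uninjured values, with a log2 change of 0.95 (SE 0.26, limma unadjusted p = 0.00379, adjusted p = 0.565) and of 0.66 with TMM scaling. Tfrc, the transferrin receptor that takes up iron, was at 53.1, 38.7 and 121 RPM without and 120.2, 69.7 and 146 RPM with injury, and its log2 change was 0.75 (TMM 0.46). Ireb2, an RNA-binding protein that responds to iron and acts on Tfrc mRNA, went from 9.74, 5.90 and 26.6 RPM to 29, 19.3 and 27.4 RPM, a log2 change of 1.03 (TMM 0.76). In both iron genes the gain was within animals, and the uninjured leg of animal 3 was above the injured leg of animal 2.

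Several leading genes act in signalling, chromatin and RNA handling. Tgfbr1, a receptor of the TGF-beta family, was at 5.97, 3.07 and 22.7 RPM in uninjured and 21.2, 12.6 and 23.8 RPM in injured legs, a log2 change of 1.16 (SE 0.34). Kat2b, a histone acetyltransferase, was at 37.1, 5.51 and 83.4 RPM and 99.3, 33.7 and 88.8 RPM, a log2 change of 1.30 (SE 0.37). In both genes animals 1 and 2 carried nearly all of the difference, and animal 3 was almost level. Matr3, a nuclear matrix protein that binds RNA, had a log2 change of 0.96 and Cnot7, a deadenylase of the CCR4-NOT complex, one of 0.91. Morf4l2, a chromatin factor, was at 31.2, 19.4 and 77.9 RPM in uninjured and 77.7, 43 and 82.5 RPM in injured legs, a log2 change of 0.83. Nucks1, a DNA-binding nuclear protein, was at 29.7, 10.2 and 75 RPM and 75.9, 36 and 75.4 RPM, a log2 change of 1.02. Sucla2, a subunit of the citric acid cycle enzyme succinyl-CoA synthetase, was at 145, 57.3 and 395 RPM and 369.6, 131 and 418 RPM, a log2 change of 0.87. In these 3 genes the uninjured leg of animal 3 was well above those of animals 1 and 2. Rmdn1, a protein linked to microtubules, had 0.91 and Ap1s2, a subunit of the clathrin adaptor AP-1, 0.71. With TMM scaling the log2 changes of these 12 higher genes ran from 0.43 to 1.03. Leaving out 1 animal or library moved them widely, for Sucla2 from 0.19 to 1.57, for Kat2b from 0.26 to 2.11, for Nucks1 from 0.31 to 1.69 and for Morf4l2 from 0.39 to 1.37. The WT injury changes of the 12 genes ran from -0.18 to 0.42.

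Genes lower in the injured leg of all 3 animals were led by Jsrp1, a protein of the junction between sarcoplasmic reticulum and T-tubules. Jsrp1 was at 1158, 1408 and 722 RPM in uninjured and 699, 534 and 674 RPM in injured legs, and the groups did not overlap. The log2 change was -0.74 (SE 0.23, limma unadjusted p = 0.00958, adjusted p = 0.565). Trim54, a ubiquitin ligase of the sarcomere also called MuRF3, was at 248, 337 and 272 RPM and 213, 166 and 217 RPM, again with no overlap, and its log2 change was -0.52. Drap1, a transcriptional corepressor subunit, went from 986, 1126 and 622 RPM to 689, 317 and 546 RPM, with a log2 change of -0.84. For Drap1 the widest gap was in animal 2, and the injured leg of animal 1 lay above the uninjured leg of animal 3.

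Other genes on the lower side include proteins of mitochondria and of transcription. Romo1, a small mitochondrial membrane protein, had a log2 change of -0.54, and Cox8a, a subunit of cytochrome c oxidase, one of -0.50. Polr2f, a subunit shared by RNA polymerases, was at -0.65, and Znhit1, a subunit of a chromatin remodelling complex, at -0.50. Hypk, which assists N-terminal acetylation, was at 174, 249 and 120.0 RPM in uninjured and 95.1, 116 and 113 RPM in injured legs, a log2 change of -0.69. Atn1, a transcriptional corepressor, had -0.79, while Tmem160 and Rex1bd had -0.64 and -0.58. Fcor, a corepressor of Foxo1 described in fat cells, had -1.17, with 21.1, 16.8 and 6.29 RPM in uninjured and 14.3, 1.49 and 5.65 RPM in injured legs. With TMM scaling these 12 log2 changes lay further from 0, from -1.44 to -0.79. Leaving out 1 animal or library gave log2 changes from -1.80 to -0.33 for Fcor, from -0.83 to -0.21 for Cox8a and from -1.17 to -0.35 for Drap1. The adjusted p was 0.565 for all 24 genes, whose common direction in the 3 animals was a condition of their choice.

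**Figure D3:**
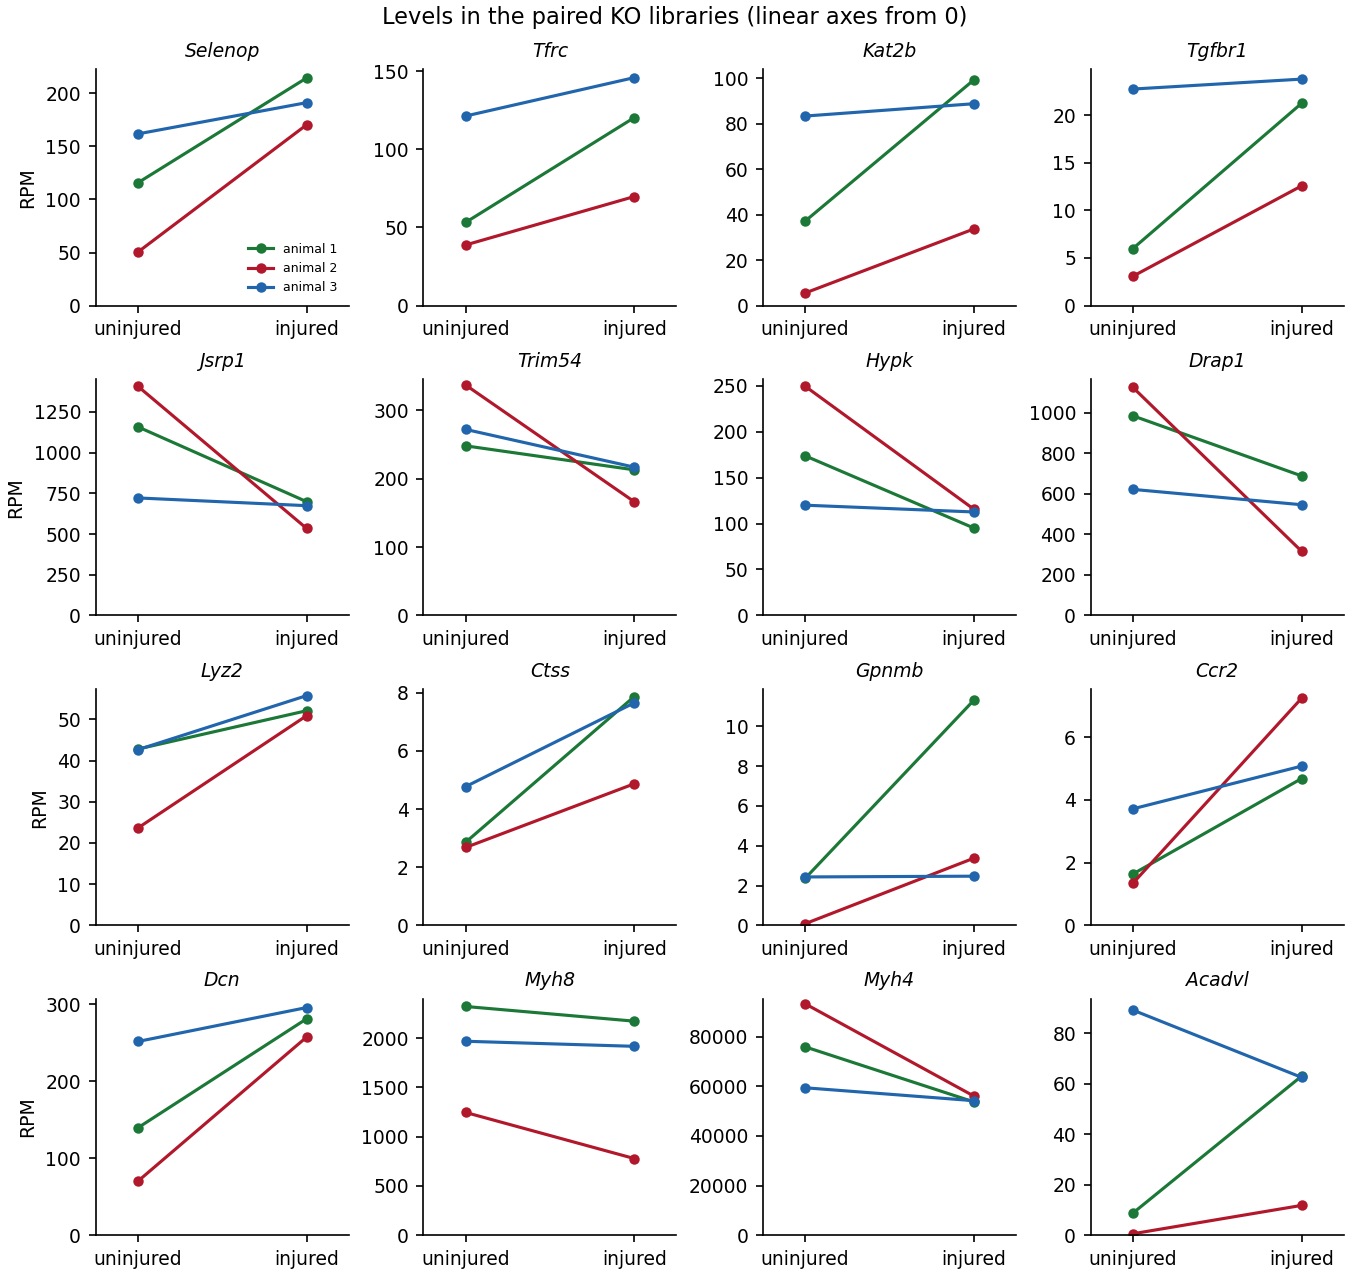
RPM in the uninjured and injured leg of each KO animal, joined by a line, for 16 genes described in the text. The axes are linear and start at 0. Selenop and Jsrp1 separate the states in all 3 animals, while Acadvl is higher in the injured leg of animals 1 and 2 and lower in animal 3.

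Leading genes on the higher and the lower side differed in the length of their loci. The median locus, from start to end of the gene in the RefSeq annotation of GRCm38.p6, was 39.4 kb for the higher and 3.0 kb for the lower leading genes, against 22.7 kb over all tested genes with a length, 12755 of 13337. The median of the lower genes rests on 30 genes with a length. With TMM scaling the medians were 42.0 kb for the higher and 5.58 kb for the lower genes at an unadjusted p under 0.05. Over protein-coding genes split by locus length into 4 groups of equal size, the median change in animal 2 was 0.36, 0.61, 0.77 and 0.92 from the shortest to the longest loci. Animal 1 had 0.01, 0.18, 0.29 and 0.36. Animal 3 had 0.02, -0.01, -0.05 and -0.06. The gradient with length was thus upward in both KO animals with many moved genes and slightly downward in the third. It was not particular to KO muscle: WT animal 2 had 0.13, 0.21, 0.27 and 0.30. WT animal 1 went from 0.07 to -0.01 and WT animal 3 had -0.02 and -0.03 for the shortest and longest loci.

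**Figure D4:**
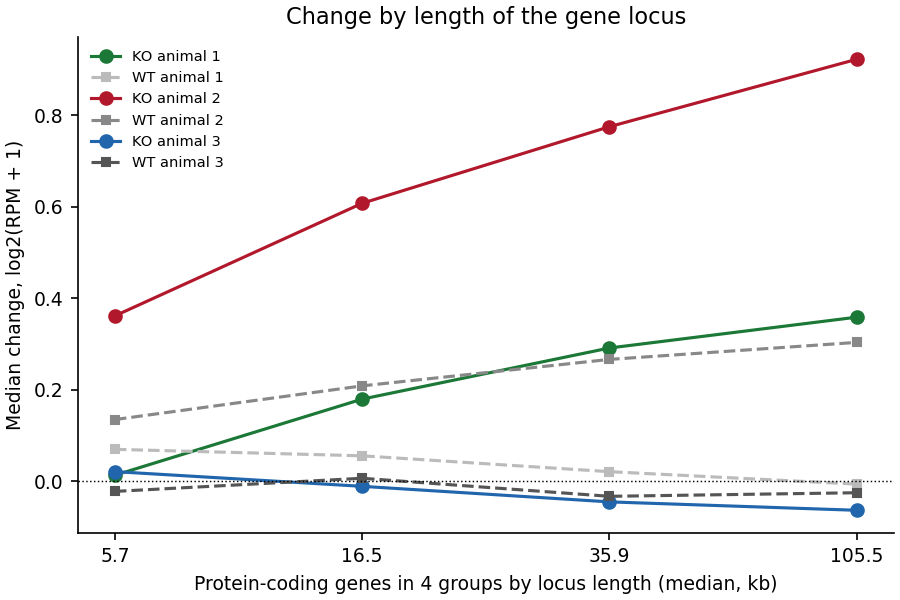
Median injured minus uninjured difference on the log2(RPM + 1) scale for 4 groups of protein-coding genes by locus length, in each animal (KO as circles, WT as grey squares). KO animal 2 goes from 0.36 to 0.92 and KO animal 1 from 0.01 to 0.36 with length, while the values of KO animal 3 stay between -0.06 and 0.02.

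The gene lists were read in the same fit. No list member passed the adjusted threshold, so each list is described by its counts and its median beside the values for all genes: a median of 0.29 (0.05 with TMM scaling), 80.9% of estimates above 0 and 6.67% of genes at an unadjusted p under 0.05 (4.78% with TMM scaling). In WT muscle the median of all genes was 0.09 and 62.4% of estimates were above 0. In bulk tissue, more cells of a type and more RNA per cell cannot be told apart.

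Macrophage genes had positive estimates in injured KO muscle on the RPM scale, none of which passed the adjusted threshold. All 20 listed genes had a positive estimate, with a median of 0.51, and 13 of them were positive with TMM scaling, with a median of 0.25. At an unadjusted p under 0.05 were 4 genes, and 2 with TMM scaling. Lyz2, the lysozyme of myeloid cells, was at 42.8, 23.6 and 42.6 RPM in uninjured and 52.1, 50.9 and 55.8 RPM in injured legs (log2 change 0.58, SE 0.23, limma unadjusted p = 0.0305). Ctss, a lysosomal protease, was at 2.85, 2.68 and 4.77 RPM and 7.87, 4.87 and 7.65 RPM, a log2 change of 0.82 (SE 0.29). Every injured leg exceeded every uninjured leg for both genes. Ccr2, the chemokine receptor of recruited monocytes, was at 1.64, 1.34 and 3.72 RPM and 4.68, 7.25 and 5.08 RPM, and Gpnmb, a glycoprotein of lipid-laden and repair macrophages, at 2.36, 0.0787 and 2.43 RPM and 11.3, 3.38 and 2.47 RPM. The separation of Gpnmb was narrow in animal 3, whose legs differed by less than the animals did. Cd14, a co-receptor for bacterial lipopolysaccharide, was named after its values were seen: it was at 2.24, 0 and 2.06 RPM and 3, 2.38 and 2.39 RPM and completed the 5 macrophage genes whose groups did not overlap, against 6.12% of all genes that were apart in this direction.

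The summed level of the macrophage list was 163, 116 and 183 RPM in uninjured and 199.6, 253 and 191 RPM in injured legs, so the groups did not overlap. The gain was largest in animal 2, where the list median was 0.96 and all genes stood at 0.65. In animals 1 and 3 the list medians were 0.19 and 0.11, against 0.19 and -0.02 for all genes. Without animal 2, 15 of 19 macrophage genes tested were higher, with a median of 0.14 against 0.09 for all genes, and 1 had an unadjusted p under 0.05. In WT muscle the median of the list was -0.08, and 8 of 20 estimates were above 0. The summed level in WT animals 1, 2 and 3 was 338, 182 and 299 RPM in uninjured and 289, 199.8 and 287 RPM in injured legs. The sums of the injured KO legs thus lay within the range of uninjured WT muscle.

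Neutrophil and lymphocyte markers were low. Of 12 neutrophil genes, only S100a9, a calcium-binding alarm protein, reached 1 RPM in 3 or more of the 12 libraries, at 0.761, 0.551 and 0.351 RPM in uninjured and 0.723, 1.88 and 0.749 RPM in injured legs. S100a8, below that filter, was lower in the injured leg of each animal, at 0.647, 3.31 and 0.514 RPM and 0.562, 0.830 and 0.486 RPM. Ly6g, the defining surface marker of mouse neutrophils, was at 0 RPM in 5 of the 6 KO libraries. The 12 lymphocyte genes summed to 13.1, 2.75 and 1.94 RPM in uninjured and 4.50, 4.92 and 16.3 RPM in injured legs. They moved in opposite ways in the animals, with medians over the 6 genes tested of -0.79 in animal 1, 0.14 in animal 2 and 1.27 in animal 3. Cd79a, a subunit of the B cell receptor, was at 2.74, 0.472 and 0.210 RPM and 0.669, 0.332 and 1.60 RPM, and its partner Cd79b at 3.92, 2.20 and 0.608 RPM and 0.883, 2.49 and 2 RPM. The erythroid genes Hbb-bs and Hba-a1, which encode globins, had log2 changes of 0.45 and 0.05. With TMM scaling that of Hba-a1 was -0.24.

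Immune signalling lists followed the bulk of genes. Of 12 cytokine and chemokine genes tested, 11 had a positive estimate (9 with TMM scaling), with a median of 0.36 (0.14 with TMM scaling). Cxcl12, a chemokine that holds stem and immune cells in tissue, was at 58.7, 39.9 and 74.3 RPM in uninjured and 74, 108 and 79.8 RPM in injured legs, a log2 change of 0.62. The 10 complement genes had a median of 0.27 (0.03 with TMM scaling). Serping1, the C1 inhibitor, had a log2 change of 0.39 and C3, the central complement component, one of 0.25 (-0.04 with TMM scaling). Antigen presentation genes had a median of 0.20 (-0.09 with TMM scaling), with H2-Aa, a chain of MHC class II, at 35, 13.6 and 32.4 RPM and 35, 48.9 and 45.4 RPM and a log2 change of 0.75. Interferon-response genes had a median of 0.21 (-0.02 with TMM scaling), with 0 of 17 at an unadjusted p under 0.05. Ifitm3 and Ifi27l2a, both induced by interferon, had log2 changes of -0.05 and -0.47.

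Genes of regenerating fibres had estimates on both sides of 0. Of 19 genes tested, 9 had a positive and 10 a negative estimate, the median was -0.03 (-0.32 with TMM scaling), and 0 had an unadjusted p under 0.05. Myh3, the embryonic myosin of new fibres, was at 3.31, 0.0787 and 5.35 RPM in uninjured and 5.30, 2.21 and 3.81 RPM in injured legs. Myh8, the neonatal myosin, was at 2322, 1246 and 1969 RPM and 2173, 778 and 1918 RPM, lower in the injured leg of each animal, with a log2 change of -0.27 (SE 0.27, limma unadjusted p = 0.330). Actc1, the cardiac actin that immature fibres use, was at 643, 200.2 and 321 RPM and 817, 137 and 423 RPM, with overlapping groups and a log2 change of 0.06 (-0.23 with TMM scaling). Myog, the myogenic factor of differentiation, was at 3.01, 7.08 and 6.57 RPM and 4.55, 2.05 and 6.84 RPM and was highest in the uninjured leg of animal 2. Myod1, the factor of activated myoblasts, was at 11.9, 11.7 and 28.3 RPM and 18, 16.4 and 29.2 RPM, a log2 change of 0.35 (0.07 with TMM scaling). In WT muscle 15 of 19 estimates of this list were above 0, with a median of 0.29, made of 0.04, 0.51 and 0.17 in WT animals 1, 2 and 3.

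Satellite cell genes had a median of 0.24 (0.06 with TMM scaling), with 1 of 14 at an unadjusted p under 0.05. Pax7, the transcription factor that defines satellite cells, was at 0.989, 2.68 and 2.50 RPM in uninjured and 2.38, 3.26 and 2.27 RPM in injured legs, and the groups overlapped (log2 change 0.29, SE 0.33, limma unadjusted p = 0.394). Chodl, a membrane lectin-like protein of satellite cells, was at 3.61, 2.44 and 6.10 RPM and 4.60, 17 and 8.67 RPM, a log2 change of 1.04 to which animal 2 contributed most. The myogenic regulator list had no gene at that level and a median of 0.35 (0.07 with TMM scaling). Within it Mef2c and Mef2d, partners of the myogenic factors, had log2 changes of 0.37 and 0.39. Cell cycle genes had a median of 0.34 (0.25 with TMM scaling), with 0 of 18 at an unadjusted p under 0.05. The animal medians were 0.18, 0.93 and -0.05, and without animal 2 the list median was 0.04, against 0.09 for all genes. Pcna, the sliding clamp of DNA replication, was at 8.90, 2.83 and 14 RPM and 15.4, 12.5 and 12.4 RPM, and Mcm7, a replicative helicase subunit, had a log2 change of 0.34.

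Connective tissue lists had their highest medians in animal 2. The fibroblast list had a median of 0.27 (-0.02 with TMM scaling), with animal medians of -0.24, 0.99 and 0.12. Dcn, the matrix proteoglycan decorin, was at 139, 70.0 and 251 RPM in uninjured and 281, 257 and 295 RPM in injured legs, and the groups did not overlap (log2 change 1.03, SE 0.38, limma unadjusted p = 0.0217). Pdgfra, the receptor that marks fibro-adipogenic progenitors, was at 10.7, 2.83 and 15.2 RPM and 15, 17 and 16.7 RPM, with little difference in animal 3. Of 32 extracellular matrix genes, 28 had a positive estimate (19 with TMM scaling) and 1 had an unadjusted p under 0.05. This was Col6a3, a chain of collagen VI, at 37.5, 12.8 and 52.2 RPM and 46.9, 60.9 and 55.3 RPM. Without animal 2 the median of the matrix list was 0.02. The tendon genes Thbs4 and Fmod, both of matrix proteins, had log2 changes of 0.06 and 0.29 (-0.23 and 0.00 with TMM scaling).

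Vessel and nerve lists showed how animals could point in opposite ways. Schwann cell genes had a median of 0.54 in the fit (0.34 with TMM scaling), made of -0.88 in animal 1, 1.75 in animal 2 and 0.67 in animal 3. Without animal 2 the list median was 0.03, against 0.09 for all genes. Pmp22, a protein of peripheral myelin, was at 187, 141 and 87.6 RPM in uninjured and 117, 636 and 157 RPM in injured legs. The injured leg was lower in animal 1 and higher in animals 2 and 3. Endothelial genes had a median of 0.22 (-0.06 with TMM scaling). Cdh5, the cadherin of endothelial junctions, and Egfl7, a protein that endothelium secretes, had log2 changes of 0.31 and 0.10 (0.02 and -0.19 with TMM scaling). In the smooth muscle and pericyte list the median was -0.15 (-0.41 with TMM scaling). There the pericyte gene Rgs5 was at 271, 259.6 and 326 RPM and 338, 433 and 354 RPM without overlap (TMM log2 change 0.10), and Acta2, smooth muscle actin, had a log2 change of -0.37. The neuromuscular junction genes Rapsn, which clusters acetylcholine receptors, and Agrn, the nerve-derived signal for this clustering, had 0.14 and 0.45 (-0.15 and 0.17 with TMM scaling).

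Contractile genes of fast fibres had estimates below those of the bulk of genes. Of 16 fast-fibre genes 3 had a positive estimate, the median was -0.13 (-0.43 with TMM scaling), and 0 had an unadjusted p under 0.05. Myh4, the myosin heavy chain of the fastest fibres, was at 75917, 93275 and 59418 RPM in uninjured and 53719, 56066 and 54210.0 RPM in injured legs. Its groups did not overlap, against 0.622% of all genes apart in this direction, but its log2 change of -0.46 had an SE of 0.29 (limma unadjusted p = 0.150). Tnnt3, the fast troponin T, was at 48241, 40779.9 and 37565 RPM and 38263, 26797 and 38559 RPM. The injured leg of animal 3 was slightly above its uninjured leg. Without animal 2, the median of the list was -0.01 and 7 of 16 estimates were positive.

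Slow-fibre genes had a median of 0.20, made of 0.82 in animal 1, 0.09 in animal 2 and 0.01 in animal 3. With TMM scaling the median was -0.09. Atp2a2, the calcium pump of slow fibres, was at 209, 64.7 and 486 RPM in uninjured and 629.9, 164 and 431 RPM in injured legs, a log2 change of 0.91 (limma unadjusted p = 0.0213). It was higher in the injured leg of animals 1 and 2 and lower in animal 3. The calcium-handling list, which also holds Atp2a2, had a median of 0.13 (-0.17 with TMM scaling). Cacna1s, the voltage sensor of muscle contraction, was at 98.6, 27.2 and 470.0 RPM and 361, 87.7 and 402 RPM, and its accessory subunit Cacna2d1 had a log2 change of 0.45. Of the membrane genes, Sgcb, a sarcoglycan, had 0.57 and Anxa5, an annexin that binds damaged membrane, 0.72. The median of that list, 0.31 (0.03 with TMM scaling), was near that of all genes.

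Fatty acid oxidation genes had a median of 0.26 (-0.03 with TMM scaling), with 3 of 21 at an unadjusted p under 0.05, and 1 with TMM scaling. Acadvl and Acadm, dehydrogenases of very-long-chain and medium-chain fatty acids, were at 8.71, 0.551 and 89.1 RPM and 102, 25 and 336 RPM in uninjured legs. In injured legs Acadvl was at 63, 11.8 and 62.5 RPM and Acadm at 279, 67.2 and 287 RPM. Both were higher in the injured leg of animals 1 and 2 and lower in that of animal 3, and their log2 changes were 1.75 (SE 0.61) and 0.87 (SE 0.39). Cd36, a fatty acid transporter, was at 176, 87.9 and 297 RPM and 358, 239 and 269 RPM, with a log2 change of 0.77 (0.48 with TMM scaling). Glycolysis and glycogen genes had a median of 0.13 (-0.16 with TMM scaling), with 17 of 26 estimates above 0 (7 with TMM scaling). The 2 members at an unadjusted p under 0.05 were Phkg1, a subunit of phosphorylase kinase, at 0.58 and Ldhb, a lactate dehydrogenase subunit, at 0.53. With TMM scaling 0 members were at that level.

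Nuclear genes of oxidative phosphorylation had a median of -0.14 (-0.43 with TMM scaling), with 25 of 76 estimates above 0. At an unadjusted p under 0.05 were 3 lower genes and 1 higher on the RPM scale. With TMM scaling 19 of the 76 were at that level, 18 of them lower, against 4.78% of all genes (2.05% lower). The animal medians on the RPM scale were -0.28, -0.32 and 0.15, so animal 3 pointed the other way, with 58 of 76 genes higher. Without animal 2 the list median was -0.07, against 0.09 for all genes, and 0 of 76 had an unadjusted p under 0.05. Ndufv3, a complex I subunit, was at 355, 493 and 179 RPM in uninjured and 195, 279.6 and 184 RPM in injured legs. Cox5b, a cytochrome c oxidase subunit, was at 699, 723 and 382 RPM and 405, 481 and 375 RPM. Both were lower in animals 1 and 2 and near level in animal 3. Sdhd, a subunit of complex II, pointed the other way, with a log2 change of 0.91. Messenger RNAs made in mitochondria had a median of 0.08 (-0.21 with TMM scaling), made of -0.51, 0.61 and 0.24 in animals 1, 2 and 3. Of these, mt-Cytb had a log2 change of 0.08 (-0.21 with TMM scaling) and mt-Co1 of 0.39.

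Adipocyte genes had the lowest median of the lists shown, -0.22 (-0.51 with TMM scaling), and 1 of 12 estimates was positive. The animal medians were 0.33, -0.81 and -0.48, so animal 1 pointed the other way, and without animal 2 the list median was -0.06. Fabp4, a fatty acid carrier of fat cells, was at 1994, 1363 and 1073 RPM in uninjured and 1823, 1505 and 896 RPM in injured legs. Car3, a carbonic anhydrase of fat and slow muscle, had a log2 change of -0.05. The groups overlapped for both genes. In WT muscle the median of the list was -0.59, with 1 of 12 estimates above 0. It was made of -0.11, -1.35 and -0.65 in WT animals 1, 2 and 3.

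Ribosomal protein genes had a median of -0.10 (-0.39 with TMM scaling), with animal medians of -0.46, -0.13 and 0.28. Rpl28, of the large subunit, was the 1 member of 77 at an unadjusted p under 0.05 on the RPM scale, against 7 members with TMM scaling, all lower. It was at 406, 404 and 171 RPM in uninjured and 203, 235 and 181 RPM in injured legs. Proteasome genes had a median of 0.08 (-0.21 with TMM scaling), with 20 of 32 estimates above 0 (10 with TMM scaling). The 2 members at an unadjusted p under 0.05 were Psma1 of the core particle at 0.85 and Psmd6 of the regulatory particle at 0.52. With TMM scaling 3 members were at that level, of which 1 was higher. Genes of nuclear-retained RNAs and splicing had a median of 0.53 (0.27 with TMM scaling), which was 1.52 in animal 2 alone and -0.02 without it. Of this list, Luc7l2, a splicing factor, was at 60.7, 50.1 and 62.7 RPM and 68, 213 and 68.7 RPM, and Ddx5, an RNA helicase, had a log2 change of 0.61.

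Stress and atrophy genes tracked the bulk, with a median of 0.31 (0.04 with TMM scaling) and 2 of 21 at an unadjusted p under 0.05, 1 with TMM scaling. Pdk4, the kinase that shuts off pyruvate oxidation, was at 122, 35.5 and 479 RPM in uninjured and 487, 76.4 and 412 RPM in injured legs. Ampd3, an AMP deaminase of wasting muscle, was at 7.08, 0.551 and 9.96 RPM and 11.1, 13.9 and 9.03 RPM. The uninjured leg of animal 2 was the lowest library for both. Immediate-early genes had a median of 0.23 (-0.04 with TMM scaling), with 14 of 17 estimates above 0 (7 with TMM scaling). Dusp1, a MAP kinase phosphatase, was at 14.5, 10.2 and 46.6 RPM and 21.9, 44.04 and 44.6 RPM, a log2 change of 0.83. Btg2, an antiproliferative factor, was at 13.6, 2.05 and 18.5 RPM and 18.7, 20.2 and 18.3 RPM, a log2 change of 1.07. Both genes differed most in animal 2 and were slightly lower in the injured leg of animal 3. The heat shock genes Hsp90ab1 and Cryab, both chaperones, had -0.02 (0.0169 when scaled to reads outside mitochondrial genes) and -0.13. Polyamine genes had a median of 0.42 (0.13 with TMM scaling), with Azin1, which frees ornithine decarboxylase from its inhibitor, at 0.95. Of the clock genes Arntl, the activator also called Bmal1, was at 3.96, 0.315 and 14.4 RPM and 9.45, 5.53 and 12.8 RPM.

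The myokine list, a general collection of secreted muscle proteins, moved as the bulk of genes did. Which myokines the study's title refers to is not given in the sources used here. Of 42 listed genes 31 were tested. Of these, 26 had a positive estimate (20 with TMM scaling) and the median was 0.29 (0.05 with TMM scaling), the same as for all genes to 2 decimals. The 2 members at an unadjusted p under 0.05 were Dcn and Cxcl12, given above.

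**Figure D5:**
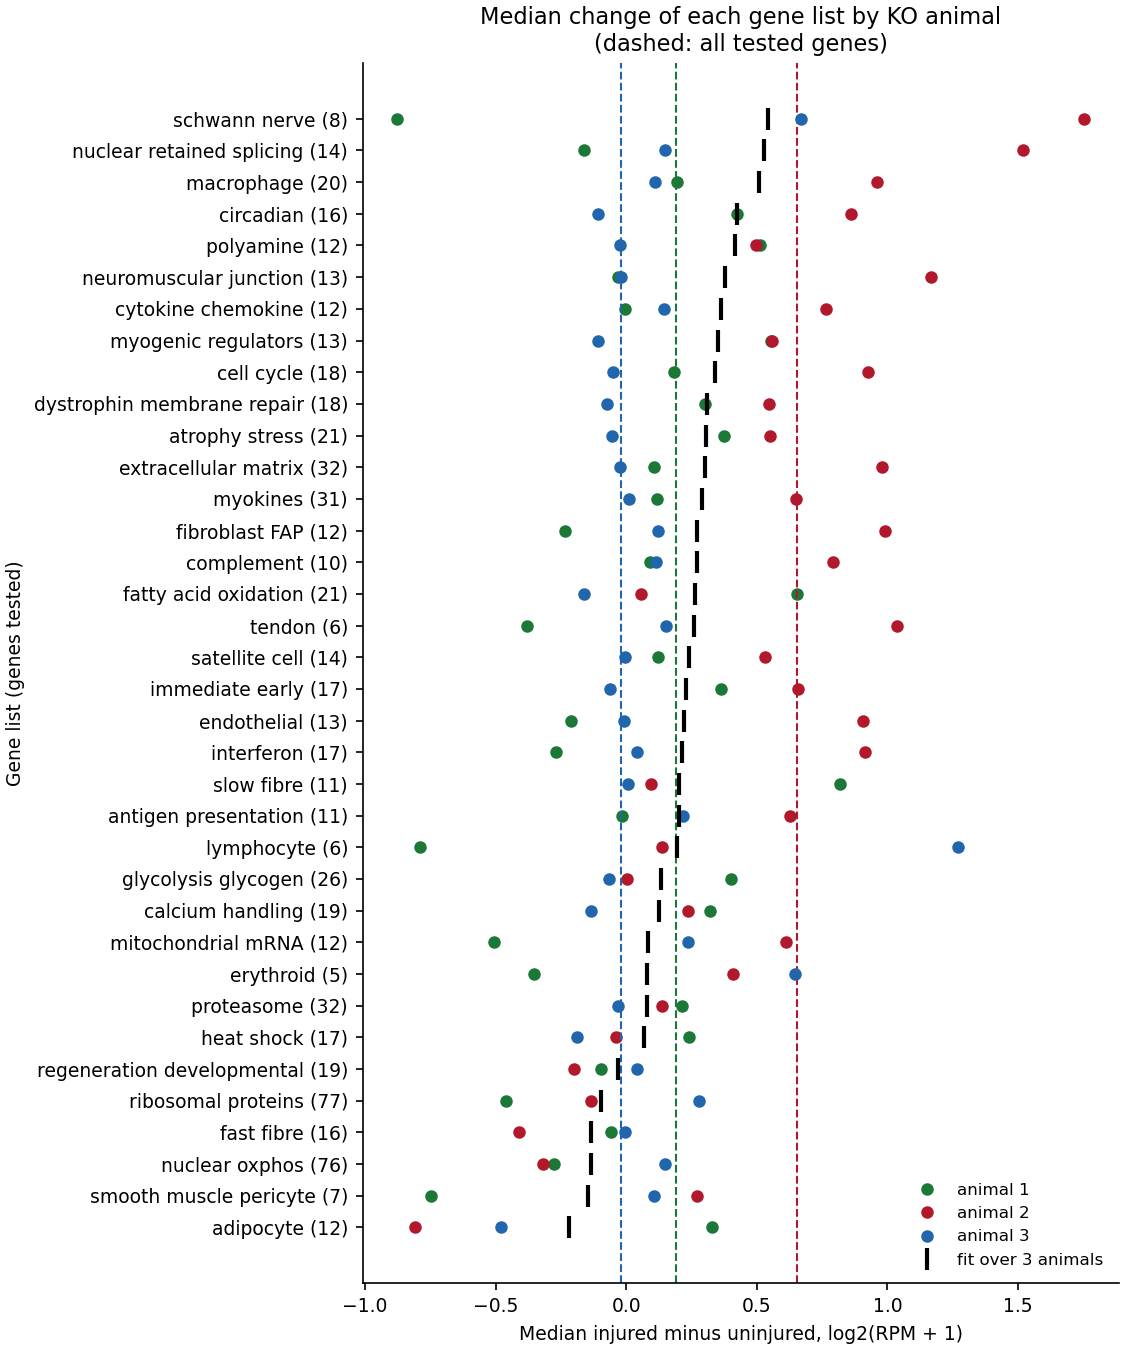
Median injured minus uninjured difference of each gene list with at least 5 genes tested, on the log2(RPM + 1) scale, in each KO animal (dots) and in the fit over the 3 animals (bars). Dashed lines are the medians of all tested genes in the same animal, 0.19, 0.65 and -0.02 for animals 1, 2 and 3. The dots of 1 list are often far apart, and Schwann cell and lymphocyte genes point in opposite ways in animals 1 and 3.

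WT muscle served as the reference for the same contrast. There 0% of 13337 genes passed the adjusted threshold, and 319 genes, 2.39%, had an unadjusted p under 0.05. The difference between the KO and the WT injury change was tested as an interaction in the same limma fit: 0% of genes passed, and 280 genes, 2.1%, had an unadjusted p under 0.05. DESeq2 and edgeR called 0 and 0 genes for the interaction, with 393 and 260 at an unadjusted p under 0.05. All 3 KO animals moved one way and all 3 WT animals the other in 2.23% of genes. None of the injury changes described above is therefore shown to be particular to KO muscle.

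The slow-fibre list held 7 of 11 genes at an unadjusted interaction p under 0.05, against 2.1% of all genes. Without WT animal 2 this count was 4 of 11, against 4.17% of all genes. Without KO animal 2 it was 6 of 11, against 0.795%. In KO muscle the list medians were 0.82, 0.09 and 0.01 in animals 1, 2 and 3, and the count was not taken without KO animal 1. The 11 genes were measured in the same libraries and are not independent of each other. In WT muscle all 11 had a negative estimate with a median of -0.84, made of -0.52, -1.51 and -0.10 in WT animals 1, 2 and 3. For Atp2a2 the WT levels were 134, 126 and 201 RPM in uninjured and 102, 51.6 and 212 RPM in injured legs. The KO minus WT difference in its log2 change was 1.44 (SE 0.48, limma unadjusted p = 0.0125, adjusted p = 0.965). WT animal 2, whose uninjured library was the shallowest of all at 1880087 reads, gave the widest change of this list. Among macrophage genes, Gpnmb had the widest difference, 1.71 (SE 0.59, adjusted p = 0.965 in limma), and Ctss had 0.96. Their WT log2 changes were -0.41 and -0.14. In the uninjured leg of KO animal 2 Gpnmb was at 0.0787 RPM, under the floor of 3 reads.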

How the data were processed

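Total RNA of hind limb muscle was extracted with Trizol and made into libraries with the TruSeq RNA v2 kit, per the labels' protocols. The submitters' processing notes name HISAT2 2.1.0, featureCounts and DESeq2 without their settings. The authors deposited values in RPM, a gene's reads per 1000000 assigned to genes, for 49585 genes, in 1 table of uninjured and 1 of injured libraries, which were joined on the gene identifier. RPM depends on no other library, so the join needs no rescaling, but any difference in how they were made cannot be told apart from injury. In each library 100% of testable values were whole reads within 0.1 read. Strand use is not given, so overlapping and antisense genes, and paralogs such as the myosins, are uncertain.

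All genes that reached 1 RPM in 3 or more of the 12 RNA libraries entered 1 model of log2(RPM + 1), fitted in R 4.3.3 by limma 3.58.1 with a mean-variance trend, the animal number as a block (4 residual degrees of freedom), an injury term per genotype and their difference, two-sided, Benjamini-Hochberg threshold 0.05. Differences are injured minus uninjured and understate changes of low genes. The pairing comes from the shared numbers and the letters L and R. Deviations of same-numbered KO libraries from their group means correlated at 0.02, 0.50 and 0.63, and those of differently numbered libraries at -0.62 to 0.50, the highest for uninjured animal 3 with injured animal 1. KO and WT pairs share a common spread per gene in this model, so a gene has the same SE for both injury terms. No source states that the libraries came from separate animals, so p-values measure the spread between these KO and WT libraries, which may in part be technical.

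Of 37 gene lists, 666 of 721 distinct genes were tested and 4 are not in the tables used here. The comparison and the lists were chosen with earlier results of these data known. Named are, in each direction, the genes past the threshold, filled to 12 by smallest unadjusted p among genes that moved the same way in 3 animals, with a mean of at least 5 RPM and a log2 change of at least 0.5, leaving out predicted genes, pseudogenes and mitochondrial tRNAs. Added are Myf6 and, from each list, up to 4 genes with an unadjusted p under 0.05 or, where there were none, the 2 of highest mean RPM, plus Myh3, Pax7, Myog, Myod1 and Cd14, which were added after their values were seen. Alternatives were DESeq2 1.42.0, edgeR 4.0.16, other scalings, filters and pseudocounts, no block, and left-out animals or libraries. The scripts were tested on simulated data. 1 gene that this rule names is not reported here. The ChIP-seq peak list was not used here.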

Additional observations from a re-analysis of the deposited data

Results flagged for a closer look

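In 4 of the 96 named genes all 3 KO animals moved one way with injury and all 3 WT animals the other way. That count is not set against the 2.23% of all 13337 genes, since 24 of the 96 were chosen for one direction in the KO animals and Cd14, one of the 4, was added after its values were seen. The difference, KO minus WT on the log2(RPM + 1) scale, was tested as an interaction in limma. It was -0.98 for the neonatal myosin Myh8 (adjusted p = 0.965), which was lower in the injured leg of the KO and higher in that of the WT animals. For Cd14 it was 0.99 (adjusted p = 0.965), for Rgs5 0.55 (adjusted p = 0.965) and for C3 0.49 (adjusted p = 0.965), each higher in the injured leg of the KO animals. None of the 4 passed the threshold. The KO change of C3 was -0.04 with TMM scaling. Cd14 was at 0 RPM in the uninjured leg of KO animal 2, under the floor of 3 reads. No outlier test was run within groups of 3 libraries.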

How the results depend on the processing

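No gene was called between injured and uninjured KO muscle in the main analysis or under 20 of the 21 alternatives. The exception left out the uninjured library of animal 3 from the fit with no animal block and called Usp34, a deubiquitinase at 2.89, 1.57 and 17.9 RPM in uninjured and 14.5, 16.8 and 14.5 RPM in injured legs of animals 1, 2 and 3. Leaving out replicates gave 0 to 1 called genes. The interaction gave 0 called genes under all 20 alternatives. Genes at an unadjusted p under 0.05 numbered 468 with no replicate block, 562 with the KO libraries alone, 633 with upper quartile scaling (55.5% higher), 948 when scaled to reads outside mitochondrial genes, 863 with a pseudocount of 0.1, 752 with no filter, 711 with 1 RPM in every library, 718 without the trend and 1078 without WT replicate 2, against 889. Without the block, leaving out the uninjured library of animal 2 gave 24 and that of animal 3 gave 2966. The block changed no call. The cause of these differences was not tested.

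Of 2002 alternative estimates for the 96 named genes, 1908 kept their sign and 94 reversed, in 24 genes. The 24 leading genes are no measure of stability here, since the rule that chose them fixed their sign in each animal. Log2 changes reversed as follows. With DESeq2 they were Actc1 -0.23, Egfl7 -0.20, Thbs4 -0.24, Fmod -0.00669, Hba-a1 -0.25, Rapsn -0.15, mt-Cytb -0.22 and C3 -0.0513. With edgeR they were Actc1 -0.22, Egfl7 -0.19, Thbs4 -0.23, Hba-a1 -0.24, Rapsn -0.14, mt-Cytb -0.21 and C3 -0.0422. With TMM scaling they were Myf6 -0.00149, Actc1 -0.23, Egfl7 -0.19, Thbs4 -0.23, Hba-a1 -0.24, Rapsn -0.15, mt-Cytb -0.21 and C3 -0.0419, and with upper quartile scaling Myf6 -0.00185, Actc1 -0.23, Egfl7 -0.19, Thbs4 -0.23, Hba-a1 -0.24, Rapsn -0.14, mt-Cytb -0.21 and C3 -0.0402. With a pseudocount of 0.1 Cd79a was 0.0543, and with scaling outside mitochondrial genes Hsp90ab1 was 0.0169. Leaving out an animal or a library gave these ranges of log2 change: Myh8 -0.55 to 0.19, Actc1 -0.52 to 0.76, Mef2d -0.13 to 0.96, Cd79b -0.63 to 0.51, Cd79a -0.65 to 0.48, Egfl7 -0.75 to 0.60, Car3 -0.44 to 0.68, Fabp4 -0.30 to 0.21, Thbs4 -0.17 to 0.40, Fmod -0.19 to 0.72, Hba-a1 -0.59 to 0.56, Rapsn -0.15 to 0.49, Agrn -0.34 to 1.07, mt-Cytb -0.67 to 0.60, mt-Co1 -0.49 to 0.96, Ldhb -0.0695 to 1.02, Acadm -0.0799 to 1.77, Hsp90ab1 -0.33 to 0.39, Cryab -0.26 to 0.0616, Ifitm3 -0.52 to 0.23, Myh3 -0.19 to 1.09 and Myog -0.68 to 0.26.

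Values under the floor of 3 reads, up to 0.236 RPM in the KO libraries, rest on too few reads for a fold change.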

Other observations

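The near-equal legs of KO animal 3 allow the few genes that did differ in it to be listed, and they were chosen here after their values were seen. Among the 30 genes at least 1 log2 unit higher in its injured leg were Cd3d, Lck, Trbc2 and Igkc, all expressed by lymphocytes. Igkc, the constant part of the antibody light chain kappa, was at 7, 0.551 and 0.421 RPM in the uninjured and 1.42, 0.775 and 4.17 RPM in the injured legs of animals 1, 2 and 3. Trbc2, a constant part of the T cell receptor, was at 1.37, 5.51 and 0.0468 RPM and 0.455, 0.387 and 2.59 RPM. In both genes the uninjured leg of animal 3 was the lowest of its group, and the difference had the opposite sign in animal 1.

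Among the 6 genes at least 1 log2 unit lower in the injured leg of animal 3 were genes known from bone and bone-resorbing cells. Ibsp, a sialoprotein of bone matrix, was at 0, 0 and 11.9 RPM in uninjured and 0, 1.05 and 1.82 RPM in injured legs. Ctsk, the protease by which osteoclasts digest collagen, was at 5.06, 1.81 and 27.8 RPM and 7.20, 10.7 and 10.0 RPM, and Mmp9, a matrix protease, at 3.35, 0.0787 and 11.5 RPM and 2.38, 1.77 and 2.47 RPM. The uninjured leg of animal 3 was the highest of the 6 KO libraries for all 3 genes. All 3 were higher in the injured leg of animal 2.

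Ucp1, the uncoupling protein of brown fat, was at 30.3, 42.8 and 104 RPM in uninjured and 56.4, 13.8 and 51.4 RPM in injured KO legs, higher with injury in animal 1 and lower in animals 2 and 3. Sln, a small regulator of the muscle calcium pump, was at 37.6, 21.3 and 40.1 RPM and 132, 26.3 and 47.1 RPM, with the injured leg of animal 1 above all other KO libraries.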
